A study of Homo sapiens with 2 samples.

Results

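The peaks described here were KMT2D ChIP-seq peaks at 7 genes of the ID and E-protein network, which are ID3, ID1 and ID2, the E-protein genes TCF3, TCF4 and TCF12, and E2F2, the neighbour of ID3. They came from the lymphoma cell line OCI-LY7, a GCB-DLBCL line (diffuse large B-cell lymphoma of the germinal centre B-cell type) whose genotype is labelled wild type. The study made 1 library with an N-terminal KMT2D antibody and 1 input library without antibody, and for both the cells were fixed in 1% formaldehyde for 10 min and chromatin was sheared to 200 to 400 bp. The peak list analysed belonged to the KMT2D library, and separate values of the input were not analysed here. A peak was a member when its highest point lay in 1 of 6 windows on hg19, which placed 71 of the 24824 listed peaks. The windows were 1:23.80-24.02 Mb (ID3 and E2F2), 20:30.14-30.22 Mb (ID1), 2:8.77-8.88 Mb (ID2), 19:1.56-1.70 Mb (TCF3), 18:52.84-53.35 Mb (TCF4) and 15:57.16-57.63 Mb (TCF12). The member peaks were chosen by the listed position of their highest point, and the genes were picked with the clustering of peaks beside ID3 already known, so every count below is a description, and with 1 library of 1 cell line no value has a replicate check.

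E proteins are basic helix-loop-helix transcription factors that pair with each other and bind E-boxes, short DNA motifs of the form CANNTG. In B cells they switch on lineage genes and are needed for germinal centres. ID proteins have the helix-loop-helix but no basic DNA-binding region, so they pair with E proteins and keep them off DNA. ID3 and TCF3 are mutated in many Burkitt lymphomas. E2F2 is a transcription factor of the E2F family, which drives genes of DNA replication. KMT2D is an enzyme that methylates histone H3 at lysine 4, and it acts above all at enhancers. A KMT2D peak marks where the protein was found and does not say which gene it acts on.

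No hg19 annotation was used, so peaks could be placed in windows but not relative to gene starts, exons or introns. Gene order came from a RefSeq gene table of another build, GRCh38.p14, which held 7 of the 7 genes. In it E2F2 and ID3 were neighbouring protein-coding genes, with ASAP3 next to E2F2 and RPL11 next to ID3. ID1 stood between MCTS2 and COX4I2, ID2 between RNF144A and KIDINS220, and TCF3 between UQCR11 and ONECUT3. TCF4 stood between CCDC68 and TXNL1, and TCF12 between ZNF280D and CGNL1. Peaks in a window may therefore belong to a neighbour as well as to the named gene, and other genes of the network were not placed.

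The promoters of ID3, E2F2 and ID2 are shown because the first pair shares the window with most peaks and ID2 is the ID gene whose promoter held an E-box. Each runs from 250 bases before to 50 after the gene's start in RefSeq, 5′ to 3′ on the gene's strand, with E-boxes in capitals and all else in lower case. Their positions are on GRCh38.p14 and cannot be set against the hg19 peaks. ID3 is on the minus strand at chr1:23559452-23559751, E2F2 on the minus strand at chr1:23531184-23531483 and ID2 on the plus strand at chr2:8681806-8682105.
ID3: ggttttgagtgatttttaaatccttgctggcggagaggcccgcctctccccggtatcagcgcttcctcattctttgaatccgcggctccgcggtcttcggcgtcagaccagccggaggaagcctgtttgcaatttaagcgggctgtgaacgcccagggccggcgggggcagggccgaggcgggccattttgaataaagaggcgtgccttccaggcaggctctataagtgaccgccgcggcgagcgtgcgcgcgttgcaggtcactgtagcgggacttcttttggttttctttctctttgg
E2F2: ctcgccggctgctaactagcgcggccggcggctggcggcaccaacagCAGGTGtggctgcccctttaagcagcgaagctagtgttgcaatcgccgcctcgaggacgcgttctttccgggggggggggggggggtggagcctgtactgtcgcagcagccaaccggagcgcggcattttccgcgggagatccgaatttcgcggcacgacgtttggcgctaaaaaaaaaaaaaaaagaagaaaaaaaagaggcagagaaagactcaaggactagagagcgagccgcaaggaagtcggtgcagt
ID2: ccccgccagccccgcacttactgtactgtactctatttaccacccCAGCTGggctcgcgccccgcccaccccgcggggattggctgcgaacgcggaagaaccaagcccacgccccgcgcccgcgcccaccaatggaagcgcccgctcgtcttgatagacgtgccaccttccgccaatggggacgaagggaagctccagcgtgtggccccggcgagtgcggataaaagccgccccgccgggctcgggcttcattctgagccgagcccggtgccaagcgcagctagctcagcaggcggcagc

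CANNTG reads alike on both strands. It was found once in the E2F2 promoter, as CAGGTG, and once in the ID2 promoter, as CAGCTG. The promoters of ID3, ID1 and TCF3 held 0 matches in these 300 bases. TCF4 and TCF12 have several starts in RefSeq, and 7 of 10 TCF4 promoters and 2 of 5 TCF12 promoters held a match. Over 35116 RefSeq promoters of the same length, 68.7% held at least 1 match, so most promoters of this length hold one. The forms CAGCTG and CAGGTG, the second also read as CACCTG on the other strand, were in 34.5% of all promoters. The promoters of ID3, E2F2, ID2, ID1 and TCF3 held 27, 29, 33, 22 and 43 CpG dinucleotides, against a median of 14 over all promoters (interquartile range 4 to 28). All 5 lay above that median, whereas 7 of 10 TCF4 promoters (1 to 28 CpG) and 1 of 5 TCF12 promoters (1 to 39 CpG) lay below it.

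KMT2D peaks were most closely packed in the ID3 and E2F2 window, and of the other 5 windows all but TCF12 also had more peaks per Mb than the rest of their chromosomes. For TCF4 this held only when peaks below a height of 26 were counted, as 1 of its peaks was at least that high. The ID3 and E2F2 window held 40 peaks in 220 kb, which is 56.3% of all member peaks. The TCF3 window held 12 peaks in 140 kb, the TCF4 window 7 in 510 kb, the ID2 window 5 in 110 kb, the ID1 window 4 in 80 kb and the TCF12 window 3 in 470 kb. Together the 6 windows held 71 peaks in 1.53 Mb, against 14.2 that the densities of the rest of their chromosomes give for the same length, a ratio of 4.99 (95% interval 3.89 to 6.29). Without the ID3 and E2F2 window the ratio was 2.56. Intervals of ratios here and below are exact, at 95%, and cover the counting error of peaks alone. They take peaks as independent and evenly spread, and where peaks cluster, as here, they are too narrow. Intervals of median heights are order-statistic intervals of at least 95% that take each peak as a separate draw. Peaks of 1 library are not replicates, so all these intervals only describe this list.

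Since peak density differs between chromosomes, each window was set beside the rest of its own chromosome. That rest was not limited to stretches around genes, as the windows were, and windows around other genes were not compared. The ID3 and E2F2 window had 181.8 peaks per Mb, against 9.79 on the rest of chromosome 1, a ratio of 18.6 (13.2 to 25.4). The ID2 window had 45.5 peaks per Mb, against 7.06 on the rest of chromosome 2, a ratio of 6.44 (2.09 to 15.1). The ID1 window had 50 peaks per Mb, against 12.04 on the rest of chromosome 20, a ratio of 4.15 (1.13 to 10.7). The ID2 and ID1 ratios rest on 5 and 4 peaks, and their intervals overlap widely. The TCF3 window had 85.7 peaks per Mb, against 26.5 on the rest of chromosome 19, a ratio of 3.23 (1.67 to 5.66). The TCF4 window had 13.7 peaks per Mb, against 4.56 on the rest of chromosome 18, a ratio of 3.01 (1.20 to 6.27). Its peaks were low, and among peaks of height 26 or more its ratio was 0.749. That value rests on 1 peak in the window, too few to show a direction, and by covered bases the ratio was 1.69. The TCF12 window had 6.38 peaks per Mb, against 9.16 on the rest of chromosome 15, a ratio of 0.697 (0.143 to 2.04). In the order of these ratios, every window's interval overlapped that of the next.

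**Figure D1:**
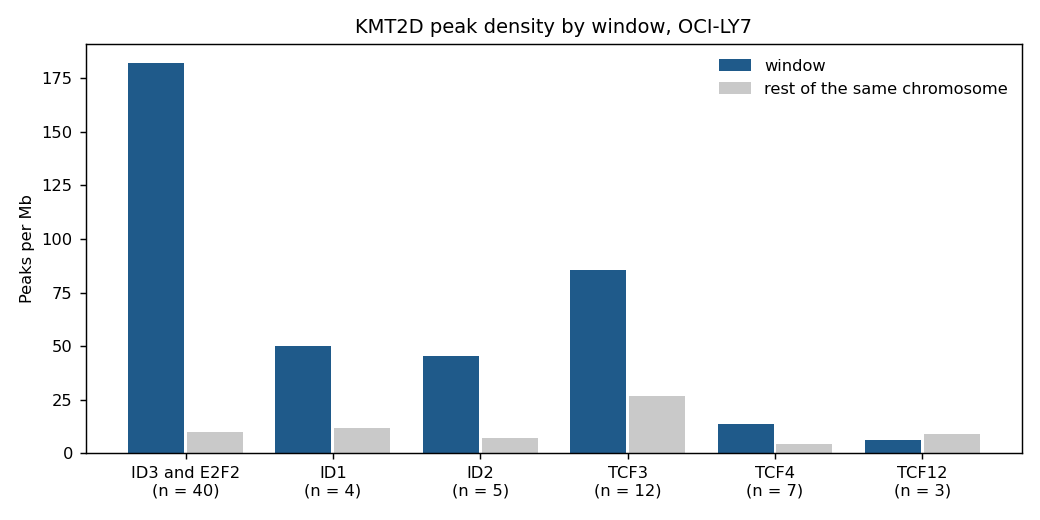
Peaks per Mb (vertical axis) in each of the 6 windows (blue) and on the rest of the same chromosome (grey), with the number of window peaks under each name. The ID3 and E2F2 window stands at 181.8 peaks per Mb against 9.79 on the rest of chromosome 1, while the TCF12 window lies below the rest of chromosome 15.

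Bases covered by peaks put the same window first. Peaks covered 14.7% of the ID3 and E2F2 window, against 0.672% of the rest of chromosome 1. They covered 6.72% of the TCF3 window, against 1.66% of the rest of chromosome 19, and 4.14% of the ID2 window, against 0.510% of the rest of chromosome 2. In the ID1 window they covered 2.68%, against 0.786% of the rest of chromosome 20. The TCF4 window was covered to 0.475%, against 0.280% of the rest of chromosome 18, and the TCF12 window to 0.399%, against 0.655% of the rest of chromosome 15. When each chromosome was cut into stretches as long as its window, 0 of 1130 stretches of chromosome 1 held as many as 40 peaks. The fullest of them, with 38, was the ID3 and E2F2 locus itself, cut by the edge of a stretch, and the next held 25. At least as many peaks as in the window lay in 65 of 784 stretches for ID1, 85 of 2209 for ID2, 21 of 421 for TCF3, 16 of 153 for TCF4 and 83 of 170 for TCF12. Many stretches were empty. They numbered 539 of 1130 for ID3 and E2F2, 487 of 784 for ID1 and 1499 of 2209 for ID2. For TCF3, TCF4 and TCF12 they numbered 101 of 421, 72 of 153 and 48 of 170.

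ID3 encodes the inhibitor of E proteins best known from B cells. Its window, shared with E2F2, held 4 clusters or lone peaks at the joining distance used here. After peaks at most 12500 bp apart were joined, 35 of the 40 peaks formed 1 cluster on chromosome 1 at 23851085 to 23975383. The other 5 stood apart from it, as a pair of heights 25 and 32 near the start of the window, a pair of heights 23 and 73 and a lone peak of height 84 near its end. The cluster fell into 8 groups of peaks when only gaps of up to 5 kb were bridged, and the 7 gaps between groups were 5.38 to 11.8 kb long. The settings decide its size, since it held 17 peaks at a minimum height of 26, 20 after peaks under 500 bp apart were merged, and 12 when joined at 5 kb. Among the 50% of peaks with the highest score its fullest cluster held 6.

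The fullest of the 8 groups, at 23917041 to 23947515, held 12 peaks over 30.5 kb and both of the tallest peaks of the window. The tallest had a height of 107 in the authors' units, a width of 3033 bp and lay at 23938135 to 23941168. The second, of height 104 and width 2212 bp, lay at 23945303 to 23947515, a little further on. Among the peaks of chromosome 1 they ranked 74 and 86 by height. The group that comes first on the chromosome, at 23851085 to 23858317, held 7 peaks and was covered to 86.8% of its 7.23 kb. Its first peak, at 23851085 to 23853290, reached a height of 96, and peaks of height 72 and 69 followed within the same group. The third group, at 23880359 to 23888834, held 4 peaks, with heights of 88, 42, 86 and 27, over 8.48 kb. These 3 groups held the 5 tallest peaks of the window.

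**Figure D2:**
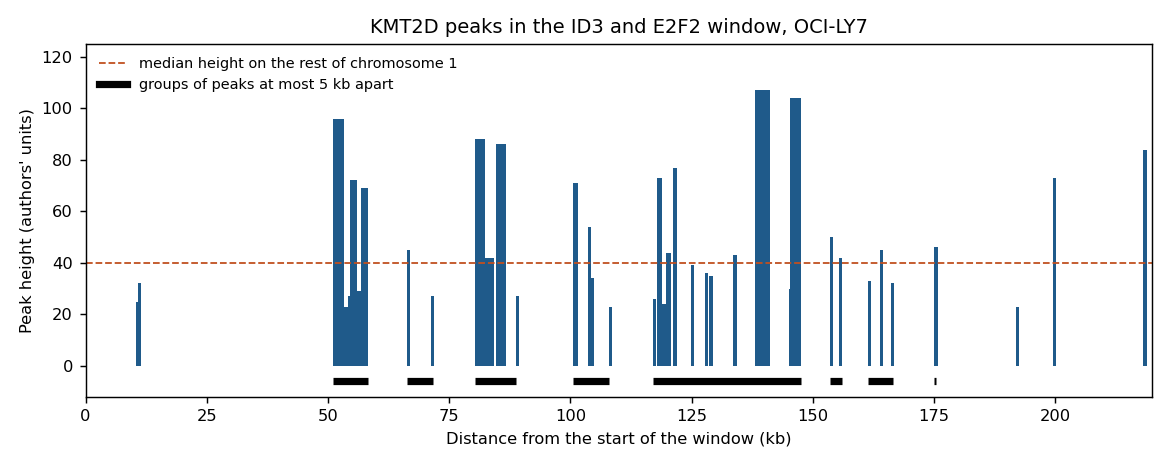
Height of each of the 40 peaks (vertical axis, authors' units) against the distance from the start of the ID3 and E2F2 window (kb); bar width is peak width, with a minimum so that narrow peaks can be seen. Black lines mark the 8 groups of the main cluster, and the dashed line is the median height of 40 on the rest of chromosome 1; the tallest bars, 107 and 104, stand together in the fullest group.

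Peaks of the ID3 and E2F2 window were many rather than tall. Their median height was 42 (95% interval 32 to 50), against 40 (38 to 41) on the rest of chromosome 1, and the intervals overlap. Heights ran from 23 to 107 in the window, against a tallest peak of 184 on the rest of the chromosome. A height of 59 or more, the upper quartile of the list, was reached by 12 of 40 peaks (30%), against 25.9% of all listed peaks and 27.2% of those on chromosome 1, so the share was near the background. These 12 tall peaks covered 18.8 of the 32.3 kb under peaks in the window (58.3%), with a median width of 1523 bp. The other 28 had a median width of 492 bp and a median height of 32.5. Widths over 2000 bp were found in 4 of 40 peaks, with heights of 86 to 107, against 2.22% of all listed peaks and 2.06% of chromosome 1. Widths of up to 200 bp were found in 8 of 40, against 21.0% of the list. Of these 8, 5 lay under 500 bp from another peak, a share that was not computed for the list.

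Some neighbouring peaks of the window were split by short gaps. Of the 39 gaps between successive peaks in the window 16 were under 500 bp, the shortest being 105 bp, and the median gap was 1.98 kb. Gaps on the rest of chromosome 1 were not measured, so these values cannot be called particular to the window. Merging across gaps under 500 bp left 24 peaks, and the ratio to the rest of chromosome 1 was then 13.1. The longest stretch without a listed peak, 39.8 kb, ran from 23811270 to 23851085. To the left of the window the nearest listed peak was 114.4 kb away from the first member, and 3 peaks lay in a stretch of equal length there. To the right the nearest was 35.8 kb from the last member, and 15 peaks lay in a stretch of equal length.

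Set beside the 10 clusters with the most peaks in the whole list, the ID3 and E2F2 cluster was the longest and not the densest. It spanned 124.3 kb, and the others spanned 36.6 to 112.8 kb. Peaks covered 29.97 kb of it, against 20.9 kb in the next by covered bases, on chromosome 11 at 67158716 to 67237267. It also had the most peaks over 2000 bp, 4, and among all 4962 clusters of 2 or more peaks none other held as many. Its density of 2.82 peaks per 10 kb ranked 7 among the 10, against 5.84 in the cluster on chromosome 8 at 11268984 to 11325485, and its covered share of 24.1% ranked 6. The median height of 42 ranked 2, tied with others, below 46 in a cluster on chromosome 12 at 113558742 to 113671498. Its tallest peak, 107, ranked 4, tied with that of the cluster on chromosome 11 at 67158716 to 67237267. Both lay below 174 in the cluster on chromosome 17 at 75396427 to 75491377. Cluster number and span were what chose this locus, so these ranks carry no test.

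**Figure D3:**
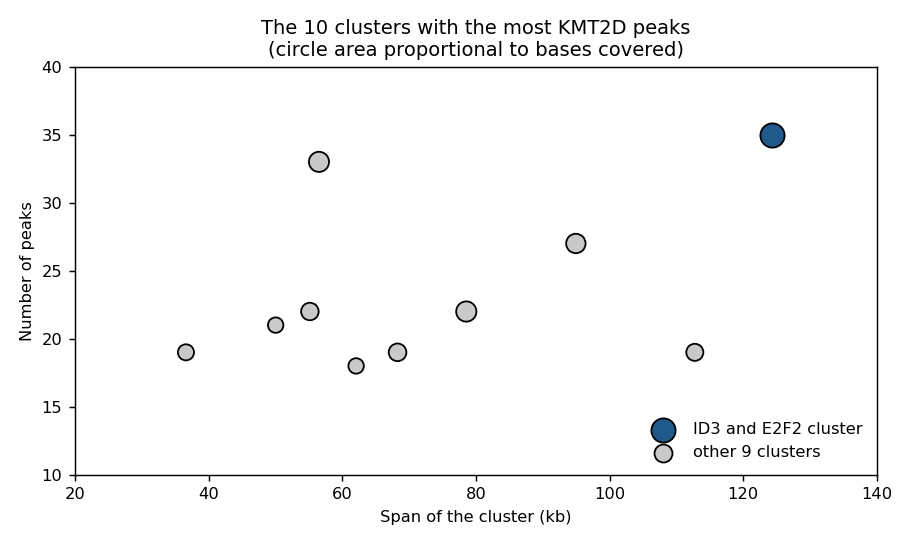
Number of peaks (vertical axis) against span in kb (horizontal axis) for the 10 clusters with the most peaks, with circle area proportional to the bases covered; both axes start above 0. The ID3 and E2F2 cluster (blue) has 35 peaks over 124.3 kb, and a cluster with 33 peaks spans only 56.5 kb.

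TCF3, which encodes the E protein most studied in B-cell development, had the tallest member peaks. The tallest, on chromosome 19 at 1652458 to 1653539, had a height of 153 and a significance value of -86.3, the lowest among the 71. It ranked 13 by height on chromosome 19 and 103 in the whole list. The second, at 1647959 to 1649447, had a height of 130 and was the widest of the window at 1488 bp. Both belonged to a cluster of 10 peaks over 25.1 kb, at 1647555 to 1672643. The next tallest were a peak of height 79 at 1668629 to 1669373, one of 69 at 1671683 to 1672643 and one of 67 at 1592045 to 1593091. The median height was 62 (46 to 79) in the window, against 51 (49 to 53) on the rest of chromosome 19, and 7 of 12 peaks reached 59 or more, against 40.7% of chromosome 19. The remaining pair of peaks, of heights 67 and 62, stood 41.1 kb before the cluster across the longest stretch without a peak, which ran from 1606411 to 1647555. The nearest listed peaks beyond the members were 83.7 kb to the left and 139.8 kb to the right. In stretches as long as the window, 8 peaks lay to its left and 2 to its right.

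TCF4, a very long gene whose E protein works in B cells and in plasmacytoid dendritic cells, had low and scattered peaks. In order along chromosome 18 their heights were 19, 23, 36, 24, 17, 19 and 22, with a median of 22 (17 to 36), against 28 (26 to 30) on the rest of the chromosome. None of the 7 reached 59, against 10.3% of the peaks on chromosome 18, and 1 of the 7 lay above the median of the rest. The tallest, of height 36, was also the widest, at 551 bp, and lay at 53090698 to 53091249. The first pair lay at 52988815 to 52989165 and 52989574 to 52989743, and the fourth peak at 53114131 to 53114547. The last 3 formed the single cluster of 3 or more peaks in the window, at 53255114 to 53257440, 140.6 kb after the fourth. These 7 peaks stood alone on a long stretch of the chromosome. They were the only listed peaks between 51884842 and 53902700, a distance of 2.02 Mb. The lowest height listed on chromosome 18 was 15, against 26 on chromosome 19, so every TCF4 peak other than that of height 36 was lower than any peak listed on chromosome 19.

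TCF12, the third E-protein gene and also a very long one, had 3 peaks, with their highest points all in the first 52.0 kb of its 470 kb window. The tallest and widest, at 57210359 to 57211659 on chromosome 15, had a height of 61 and a width of 1300 bp. A narrow peak of height 27 and width 169 bp followed at 57211967 to 57212136. The third, of height 39, lay at 57179249 to 57179653, 30.7 kb before them. The longest stretch of the window without a listed peak was the 417.9 kb after the last of the 3. The median height was 39 in the window, against 43 on the rest of chromosome 15, and 1 of 3 peaks reached 59, against 29.8% of the chromosome. Counted past the window's end, no peak was listed for 786.4 kb after the last of the 3 peaks, and before the first none for 153.7 kb.

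**Figure D4:**
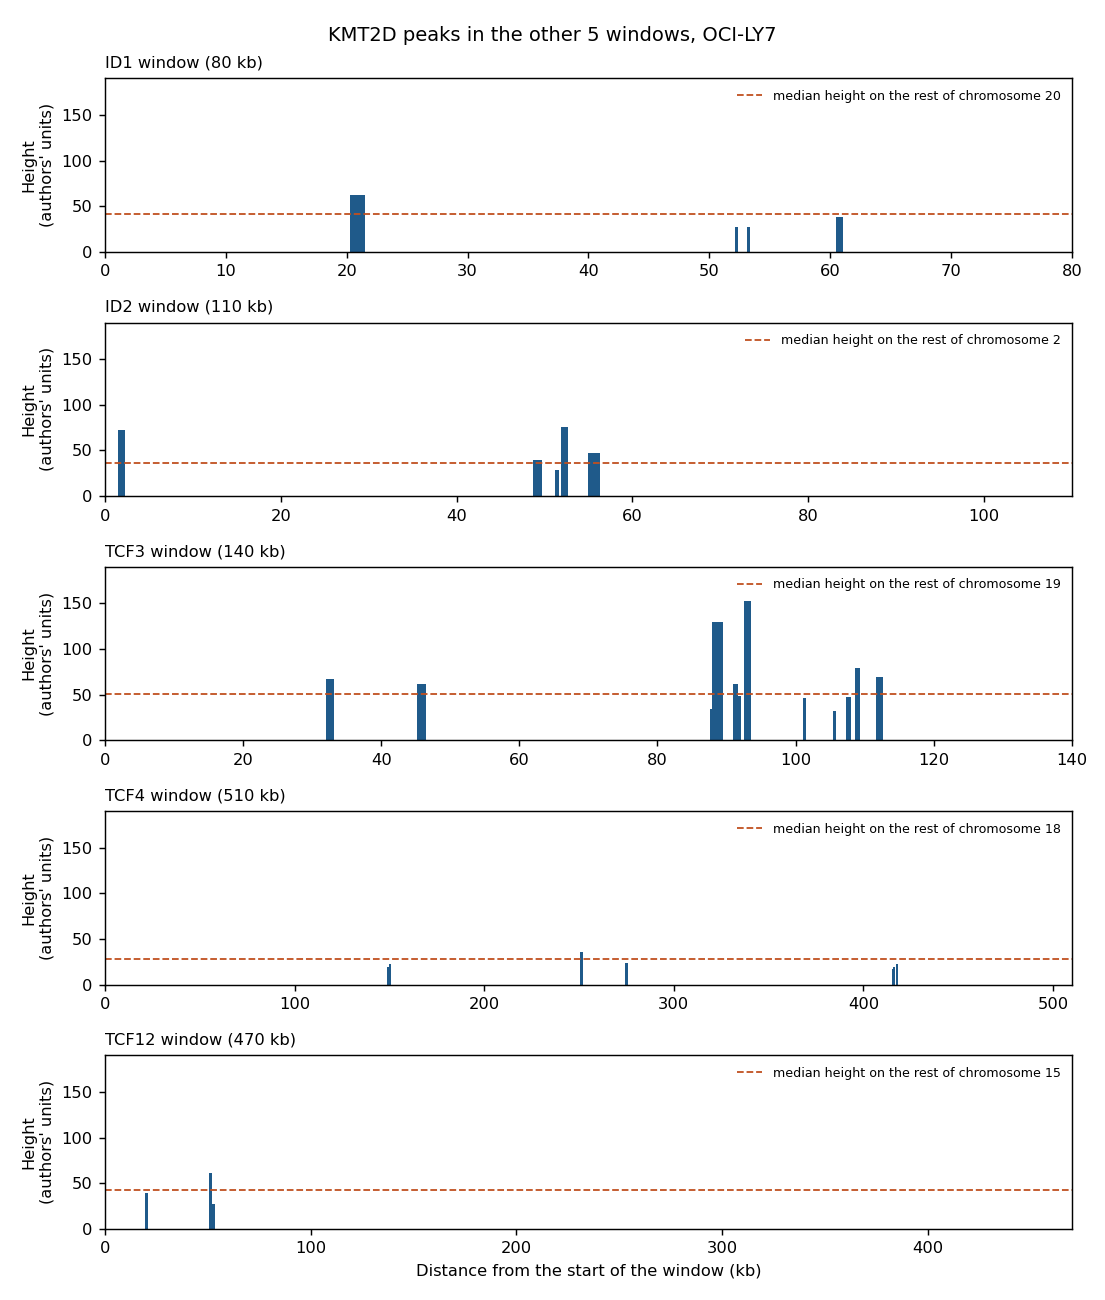
Peak height (vertical axes, authors' units, same scale) against the distance from the start of the window (kb) in the ID1, ID2, TCF3, TCF4 and TCF12 windows, with the median height of the rest of each chromosome as a dashed line. TCF3 peaks reach 153 and 130, TCF4 peaks reach 36 at most, and the highest points of the TCF12 peaks lie in the first 52.0 kb of their window.

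ID2, an inhibitor of E proteins known from natural killer and innate lymphoid cells, had 5 peaks. The tallest, of height 76, lay on chromosome 2 at 8821825 to 8822694, within a cluster of 4 peaks over 7.66 kb. The other peaks of this cluster had heights of 40 at 8818667 to 8819733, 28 at 8821235 to 8821618 and 47 at 8824913 to 8826328, the last being the widest at 1415 bp. The fifth peak, of height 72 at 8771444 to 8772265, stood 46.4 kb before the cluster, the longest gap between peaks here, with 53.7 kb free of peaks at the window's end, and a peak of height 43 just outside the window was 2.05 kb from it. The median height was 47 in the window, against 36 (35 to 38) on the rest of chromosome 2, and 2 of 5 peaks reached 59, against 24.1% of the chromosome.

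A crowded stretch lay just left of the ID2 window. The window held 5 peaks, against 23 in the 110 kb before it. There the median height was 33 (24 to 49) and peaks covered 18.8% of the length. The tallest peak, of height 101, was 4795 bp wide and lay at 8712546 to 8717341. A cluster of 17 peaks ran from 8654727 to 8693281, and its start lay outside the 110 kb, where the first peak began at 8662632. Cut into stretches of 110 kb, chromosome 2 had its fullest stretch overlapping the 110 kb before the window, and the next fullest held 20. That fullest stretch also held 23 peaks, from 8654727 to 8726659, but not the same 23. In the gene table of the other build no protein-coding gene stands between RNF144A and ID2. The crowded stretch was noticed after its values were seen and lies outside the member windows.

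ID1, an inhibitor of E proteins and a textbook target of BMP signalling, had 4 peaks. The tallest and widest, of height 62 and 1242 bp, lay on chromosome 20 at 30160234 to 30161476. The other 3 formed a cluster of 8.93 kb, 30.6 kb further on. They lay at 30192117 to 30192284 with a height of 27, at 30193107 to 30193311 with a height of 27, and at 30200518 to 30201048 with a height of 38. The median height was 32.5 in the window, against 41 (39 to 44) on the rest of chromosome 20, and 1 of 4 peaks reached 59, against 29.6% of the chromosome.

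**Figure D5:**
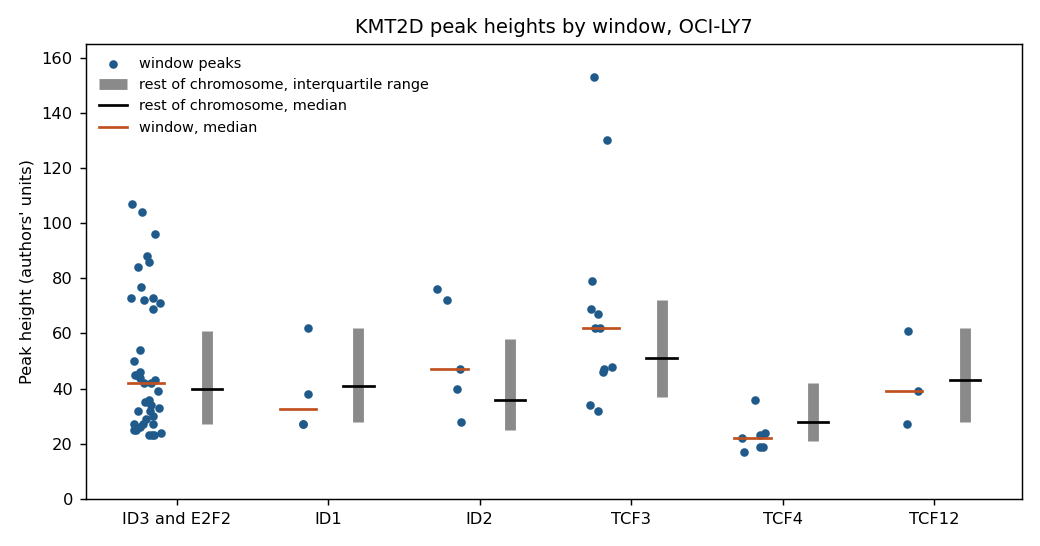
Height of each member peak (points, authors' units) by window, with the window's median (orange), beside the median (black) and interquartile range (grey) of the rest of the same chromosome. TCF3 points reach 153, TCF4 points stay at 36 or below, and the ID3 and E2F2 points spread from 23 to 107 around a median of 42 against 40 on the rest of chromosome 1.

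Over the 71 member peaks together, the median height was 42 (34 to 47), against 39 (39 to 40) for the other 24701 peaks. The median width was 572 bp in the windows, against 609 bp elsewhere. A height of 59 or more was reached by 23 of 71 members (32.4%), against 25.9% of the list. None of the members was among the 30 peaks listed at minus infinity for significance, and the weakest, in the ID3 and E2F2 window, had a significance value of -16.1.

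A given height did not carry the same significance value everywhere. The tallest ID1 peak, of height 62, had a value of -40.2, and the tallest TCF12 peak, of height 61, had -44.8. Both TCF3 peaks of the same height, 62, had -32.8 and -34.6. For peaks of height 25 to 29 the median value was -19.0 over 7 peaks in the ID3 and E2F2 window, against -19.7 over 400 peaks of chromosome 1. Peaks of these heights had a median of -24.5 on chromosome 18 and -16.04 on chromosome 19. Heights of the TCF4 and TCF3 windows are therefore best read against their own chromosomes. Local copy number and background were not measured here, and their part in these values was not tested.

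The windows end at round positions, and the peaks nearest to their ends were as follows. At ID2, the last peak outside lay 924 bp before the edge, with a height of 43, and the first inside lay 1865 bp after it, with a height of 72. At ID3 and E2F2, the last peak inside had a height of 84 and lay 1783 bp before the edge, and the first outside had a height of 36 and lay 34.8 kb beyond it. At ID1, the last peak outside on the left lay 4.96 kb from the edge, with a height of 41, and the first inside lay 20.7 kb from it, with a height of 62. At TCF3, TCF4 and TCF12 no listed peak lay within 50 kb outside an edge.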

How the data were processed

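KMT2D ChIP-seq was done on 1 OCI-LY7 library, with 1 input library. The build is hg19 and the named tool CASAVA 1.8.2, per the submitters' processing notes. How reads were aligned, how peaks were called and how the input was used is not given in the sources. The authors deposited a list of 11 columns without a header, so meanings were read from the values. The deposited signal column is a whole number per peak, called height, with unstated normalization. The authors deposited 2 score columns, one called the score and one the significance value, which resembles the logarithm of a p-value and is at most -15. A deposited percent column gives where the highest point lies between start and end. Whether positions count from 0 or from 1 is not stated. Scores and heights only describe or rank peaks within this list. The sequencing depth is unknown.

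The 24772 peaks on chromosomes 1 to 22 and X served as background. Densities used the distance from first to last peak on the chromosome, less the window. Median intervals are order-statistic intervals, ratio intervals for single windows are exact conditional ones, and the interval over 6 windows is an exact Poisson one. No p-value was computed. Genes, windows, lists and tests were chosen with earlier results of these data known. In each window the tallest and the widest peak and the longest gap between peaks are named, with every peak where there were at most 6, and otherwise the 5 tallest and each cluster of 3 or more. Alternatives were 2 score cuts (the top 50% and the top 25%), merging under 500 bp, a common minimum height of 26 (the highest of the chromosomes' lowest heights), membership by any overlap, windows widened by 50 kb, covered bases, removal of peaks up to 200 bp, and joining at 5 and 25 kb. Functions were tested on simulated data. Promoters came from RefSeq (GRCh38.p14). Versions were matplotlib 3.10.9, scipy 1.17.1, pandas 2.3.3, numpy 2.4.6 and Python 3.11.15.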

Additional observations from a re-analysis of the deposited data

How the results depend on the processing

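With 1 library, a count was taken as moved when it changed by over 1.5 times, and a ratio or median when it left its own 95% interval. No paired analysis was possible because there was 1 KMT2D library and no test. Of 35 alternative values for the main results, 24 stayed and 11 moved. The ID3 and E2F2 window held 20 peaks among the 50% with the highest score, 12 among the 25% and 24 after merging, against 40. The 6 windows held 36 and 21 under these score cuts, against 71. The ratio of the ID3 and E2F2 window to the rest of chromosome 1 was 13.1 after merging, and that of the 6 windows was 3.87 when widened. The ID3 and E2F2 cluster held 12 peaks when joined at 5 kb, 6 among the 50%, 20 after merging and 17 at the common minimum height, against 35. Fewer peaks entering, or shorter joins, lower these counts by construction. Of 35 alternative values for the other 5 windows, 27 stayed and 8 moved. When windows were widened by 50 kb, the ID1 count rose from 4 to 8 and the ID2 count from 5 to 9. Among the 50% of peaks with the highest score, the ID1, ID2, TCF4 and TCF12 counts moved to 1, 3, 1 and 1. The TCF4 ratio fell to 0.749 at the common minimum height, where 1 peak was left in the window, against 3.01 over all heights (an alternative chosen after seeing the data). Over the alternatives run, the ratio of the ID3 and E2F2 window ranged from 13.1 to 21.8. Since the depth is unknown, a stretch with no listed peak may still be bound.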

Other observations

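The position of the highest point within a member peak had a median of 44.7% of the way from start to end, against 46.7% for the other peaks. The most frequent width in the list, 169 bp, was met in 2 of 71 members, 1 in the TCF4 window and 1 in the TCF12 window. It was met in 262 of the other 24701 peaks, and 2 members are too few to compare the shares. Width and height rose together in the ID3 and E2F2 window, with a Spearman correlation of 0.85 over its 40 peaks, against 0.88 over all peaks of chromosome 1. Peaks of 1 library share its depth and background, and these correlations only describe it.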
